A study of Drosophila montana with 12 samples.

Results

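Diapausing females of *Drosophila montana* kept at LD 16:8 were compared with diapausing females kept at the critical day length (CDL), the light cycle at which part of the females enter diapause and part do not. These are 6 of the 12 libraries of the series, 3 at each light cycle, and the comparison was made over all 31233 contigs of the transcriptome. Each library was made from 10 whole females of 21 d pooled together. The other 6 libraries, 3 of nondiapausing females at the CDL and 3 of nondiapausing females at LD 22:2, give the level that each contig takes in reproducing females. Every pool came from an isofemale line, founded by 1 wild-caught female. Line 175OJ8 gave all LD 16:8 and LD 22:2 pools, whereas the 3 pools of a CDL group were of 3 lines, with 175OJ8 joined by 265OJ8 and 3OL8. At LD 16:8 the light was on for 16 h and off for 8 h, and at LD 22:2 for 22 h and 2 h. The labels give the CDL as 17.5 h of light and 5.5 h of dark, which add to 23 h, whereas the methods of the study give an hour more of light.

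Reproductive diapause is an adult arrest in which the ovaries stay small and without yolk while energy stores are spared. In *Drosophila* it is set by day length and temperature, and the fat body, which makes yolk proteins and stores lipid, changes its output with it. The females were sorted by dissection, with clear previtellogenic ovaries taken as diapausing, large ovaries with eggs as nondiapausing, and ovaries between these stages left out. The yolk protein contigs followed the labels: *Yp3* had 102 to 493 CPM (read counts scaled to library size with TMM factors) in the 6 diapausing libraries and 848 to 1493 CPM in the 6 nondiapausing libraries. Since whole females were used, fewer cells of a type and less RNA per cell cannot be told apart in any of the values below.

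The diapausing libraries held 4679623 to 5764157 counted reads, with a median of 32 to 39 reads per contig, and the nondiapausing libraries 2986505 to 6637623. The biological coefficient of variation was 0.237. Any 2 libraries had different counts in at least 30042 contigs. The labels do not say whether pools of one group came from separate cultures, and the p-values then measure only the spread between these pools.

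At LD 16:8 126 contigs were differentially expressed (DE; FDR below 0.05 in the likelihood ratio test of a GLM over all 12 libraries), or 0.403% of all contigs. In 44 of them, 21 higher and 23 lower at LD 16:8, the CPM of 1 library was at least 5 times that of every other library. These single-library contigs were set aside. Their highest library was at a median of 48.1 times the next, and it was a diapausing library in all 44, most often the 175OJ8 library at the CDL (12 contigs) and LD 16:8 replicates 2 and 3 (9 each). The 82 contigs left are 0.264% of the 31109 contigs that were not set aside in this way. Of these, 46 were higher (0.148%) and 36 lower (0.116%) at LD 16:8. The plot of fold change against abundance shows both sets among all contigs.

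**Figure D1:**
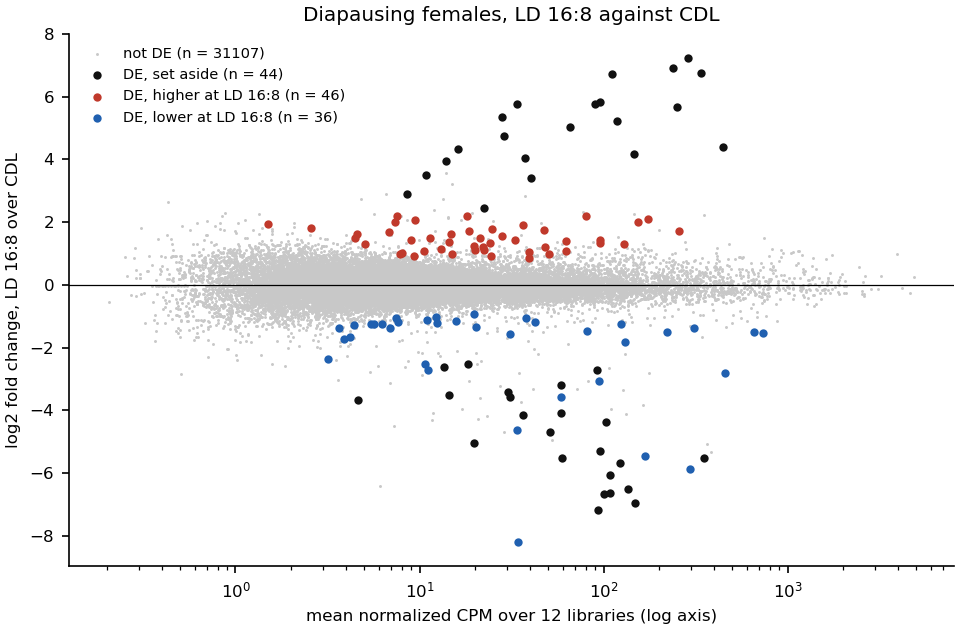
Each point is a contig, with its mean CPM over 12 libraries on a log axis and its log2 fold change between diapausing females at LD 16:8 and at the CDL. Red points are the 46 DE contigs higher at LD 16:8, blue the 36 lower, black the 44 DE contigs in which 1 library stood at 5 times or more every other, and gray the contigs that were not DE.

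Among the 46 higher contigs the median log2 fold change was 1.43, with a range of 0.87 to 2.21, and among the 36 lower contigs it was -1.42, with a range of -8.19 to -0.94. The median over all contigs was -0.03. The 3 LD 16:8 libraries all lay above the 3 CDL libraries in 42 of the 46 higher contigs, against 4.54% of all contigs, and all below them in 32 of the 36 lower contigs, against 6.36%. The contigs were called on these same libraries, so their separation follows in part from that choice. An exact permutation of 3 against 3 libraries cannot give a two-sided p below 0.1, so these separations are descriptions. The contig nearest to the threshold among the 82 was contig_21350 (FDR 0.0479), and *CG14741* lay just outside it (FDR 0.0521). With the stricter quasi-likelihood test only *CG16904* and contig_23146 stayed below an FDR of 0.05 (0.00643% of contigs), and no lower contig did. All 46 higher and all 36 lower contigs had an unadjusted quasi-likelihood p below 0.05, as did 7.56% of all contigs. This too follows in part from the choice of contigs on the same libraries. The DESeq2 Wald test called 47 of the 82 and gave no adjusted p to 34 of them.

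Where the contigs of a list were named by the study, they were named as DE on these same libraries, so their counts are not independent evidence of a direction. Of 45 listed contigs, 42 were DE, of which 18 were single-library contigs, 9 were higher, and 15 lower. The 15 listed for reproduction gave 9 lower, 1 higher, and 5 single-library contigs. For metabolism the 31 contigs gave 11 lower, 7 higher, and 11 single-library contigs, with 2 that were not DE. The 15 neuron contigs gave 5 lower, 2 higher, and 7 single-library contigs, with 1 not DE. For ion transport, 2 of 4 were higher, 1 was a single-library contig, and 1 was not DE. The lists overlap, so that *Yp2*, *Yp3*, *Abl*, and *salr* each stand in 3 of them. Roles given below are those of the *D. melanogaster* genes of the same names. A gene name stands for 1 contig, and other contigs with the same blast hit are described further below.

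Lipid synthesis genes were among those higher at LD 16:8. *CG16904*, of the family that elongates fatty acids, had 26.1, 22.2, and 23.5 CPM at LD 16:8, and at the CDL 7.11 CPM in line 175OJ8, 4.61 in 265OJ8, and 5.32 in 3OL8. The groups stood well apart, at 4.21 times the CDL mean (log2 fold change 2.07, SE 0.30, FDR 6.03e-08; quasi-likelihood FDR 0.0172). In nondiapausing females *CG16904* had 2.65 to 6.26 CPM, so that only the LD 16:8 libraries were high. *Acetyl-CoA carboxylase*, which makes the malonyl-CoA that fatty acid synthesis starts from, had 149, 74.5, and 123 CPM at LD 16:8 against 64.2, 39.9, and 45.5 at the CDL in the same order of lines. Its lowest LD 16:8 library lay above its highest CDL library (log2 fold change 1.21, SE 0.30, FDR 0.0205). Nondiapausing females had 8.61 to 23.5 CPM of *Acetyl-CoA carboxylase*, below all 6 diapausing libraries. Of the other listed lipid genes, *ifc* was a single-library contig. *Acetyl-CoA carboxylase* was no longer called without LD 16:8 replicate 1 (FDR 0.183) or 3 (0.0528) or without the CDL library of 265OJ8 (0.167) or 3OL8 (0.121), whereas *CG16904* kept its call without any one of the 6 libraries.

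Genes of transcription and chromatin moved in both directions. *MED28*, a subunit of the Mediator complex that links transcription factors to RNA polymerase, had 37.8, 58.5, and 31.6 CPM at LD 16:8 and 8.13, 15.0, and 14.3 CPM at the CDL (log2 fold change 1.77, SE 0.29, FDR 2.58e-05). *salr*, a zinc finger transcription factor, had 24.6, 47.7, and 23.7 CPM at LD 16:8 and 12.8, 11.4, and 12.8 at the CDL (log2 fold change 1.37, SE 0.30, FDR 0.00368). Replicate 2 was the high LD 16:8 library for both, and *salr* lost its call without it (FDR 0.0938). *YL-1*, a subunit of a chromatin remodeling complex, had 117, 219, and 89.5 CPM at LD 16:8 against 54.1, 58.5, and 57.3 (log2 fold change 1.32, SE 0.34, FDR 0.0327). It lost its call without LD 16:8 replicate 2 or any one CDL library. *MED16*, also of the Mediator complex, was lower, with 0.435, 0.415, and 1.22 CPM at LD 16:8 and 2.03, 2.21, and 7.01 at the CDL (log2 fold change -2.36, SE 0.63, FDR 0.0189). The call for *MED16* rests on few reads and was lost without LD 16:8 replicate 1 (FDR 0.176) or 2 (0.210) or the 3OL8 library (0.391). Of the 7 listed contigs in this group, *zfh2* and *spen* were single-library contigs, and *CG12316* is given below with the isofemale lines.

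*CG10177*, a predicted protein kinase, had 71.8, 95.2, and 58.3 CPM at LD 16:8 and 10.2, 24.3, and 25.6 CPM at the CDL (log2 fold change 1.91, SE 0.32, FDR 5.59e-05). Line 175OJ8 was the lowest at the CDL, and within that line the LD 16:8 mean was 7.39 times the CDL library. NT5E-2, an ecto-5'-nucleotidase, had 48.7, 36.9, and 43.6 CPM against 22.6, 16.6, and 16.9 (log2 fold change 1.20, SE 0.26, FDR 0.00457), and it lost its call without LD 16:8 replicate 1 (FDR 0.0515). *Ctr1C*, a copper transporter, had 7.18, 5.81, and 11.2 CPM at LD 16:8 and 2.85, 3.61, and 1.21 at the CDL (log2 fold change 1.62, SE 0.38, FDR 0.00766), and lost its call without LD 16:8 replicate 3 (FDR 0.0884) or the 3OL8 library (0.115). *Rh50*, of the Rh family of ammonium transporters, had 15.2, 18.9, and 12.8 CPM against 6.91, 9.22, and 7.49 (log2 fold change 0.99, SE 0.26, FDR 0.0324), and it lost its call without LD 16:8 replicate 1 or 2 or without the 175OJ8 or 3OL8 library at the CDL. *Mdr49*, an ABC transporter that acts in germ cell migration in the embryo, went the other way, with 8.26, 6.22, and 6.32 CPM at LD 16:8 and 15.4, 13.0, and 15.0 at the CDL (log2 fold change -1.06, SE 0.26, FDR 0.0157). Its call was lost without LD 16:8 replicate 2 or 3 or the 175OJ8 or 3OL8 library at the CDL (FDR 0.0863 to 0.175).

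The other 7 of the 10 contigs with the lowest FDR carry no gene name in the files. contig_23146 had 179, 99.8, and 133 CPM at LD 16:8 against 36.8, 29.5, and 22.7 at the CDL (log2 fold change 2.21, SE 0.32, FDR 5.33e-07; quasi-likelihood FDR 0.0101). contig_4922 was the most abundant of them, with 406, 574, and 229 CPM against 120, 103, and 57.3 (log2 fold change 2.11, SE 0.41, FDR 0.00222). The higher contigs contig_27159, contig_29334, contig_19315, and contig_19625 had log2 fold changes of 1.63, 1.73, 1.49, and 1.24. contig_510 had the lowest FDR of the lower contigs, with 54.1, 29.2, and 46.9 CPM at LD 16:8 and 93.5, 220, and 151 at the CDL (log2 fold change -1.83, SE 0.35, FDR 0.00146). All 7 kept their call without any one of the 6 diapausing libraries.

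Both listed yolk protein contigs were lower at LD 16:8. *Yp3*, a yolk protein made in the fat body and follicle cells, had 102, 123, and 125 CPM at LD 16:8, and at the CDL 493 CPM in 175OJ8, 299 in 265OJ8, and 206 in 3OL8 (log2 fold change -1.51, SE 0.35, FDR 0.0104). *Yp2*, of the same family, had 23.5, 29.7, and 37.9 CPM against 124, 56.9, and 79.3 (log2 fold change -1.52, SE 0.36, FDR 0.0110). Line 175OJ8 was the highest at the CDL for both, at 4.21 and 4.10 times the LD 16:8 mean. Both lost their call when that library was left out, with an FDR of 0.209 for *Yp3* and 0.170 for *Yp2*, and also without LD 16:8 replicate 1 (0.154 and 0.183) or 2 (0.111 and 0.132). Without the 175OJ8 library the CDL libraries left still lay above all LD 16:8 libraries. *Gprk2*, a G protein-coupled receptor kinase needed for oogenesis, had 11.3, 12.2, and 12.8 CPM against 23.8, 23.5, and 22.7, with little spread within either group (log2 fold change -0.94, SE 0.21, FDR 0.00607), and lost its call without LD 16:8 replicate 1 (FDR 0.0685) or 2 (0.0520). *wash*, an actin regulator that acts in oogenesis, had 1.09, 1.66, and 0.816 CPM against 3.86, 2.81, and 5.56 (log2 fold change -1.74, SE 0.45, FDR 0.0112). *wek*, an adaptor of Toll signaling in the embryo, had 0.87, 1.66, and 1.63 CPM against 3.25, 6.22, and 3.87 (log2 fold change -1.66, SE 0.43, FDR 0.0177). Both rest on few reads. The call for *wash* was lost without LD 16:8 replicate 1 (FDR 0.0922) or 3 (0.0941) or the 3OL8 library (0.152), and that for *wek* without LD 16:8 replicate 1 (0.201) or 2 (0.0706) or the 265OJ8 library (0.231).

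Other lower contigs belonged to metabolism, RNA processing, and signaling. *Sym*, which encodes symplekin of the machinery that cuts the 3' ends of mRNA, had 18.5, 10.6, and 13.1 CPM at LD 16:8 and 53.9, 26.1, and 35.8 at the CDL (log2 fold change -1.46, SE 0.34, FDR 0.00898). *CG2543*, a predicted enzyme of folate metabolism, had 6.96, 9.13, and 9.18 CPM against 19.3, 17.4, and 15.0 (log2 fold change -1.03, SE 0.24, FDR 0.00837). *CG9238*, a predicted glycogen-binding subunit of a protein phosphatase, had 69.4, 68.4, and 76.7 CPM against 169, 124, and 220 (log2 fold change -1.26, SE 0.30, FDR 0.0154). *RhoGAP100F*, which acts at synapses, had 2.83, 2.90, and 2.24 CPM against 8.33, 6.22, and 6.04 (log2 fold change -1.37, SE 0.35, FDR 0.0182). In each of these 4 the CDL libraries of all 3 lines lay above every LD 16:8 library. *Sym* lost its call without LD 16:8 replicate 2 or 3 or the 175OJ8 library (FDR 0.0641 to 0.184), *CG2543* without LD 16:8 replicate 1 or the 175OJ8 library (0.114 and 0.0571), *CG9238* without LD 16:8 replicate 1 or 2 or the 3OL8 library (0.105 to 0.153), and *RhoGAP100F* without any one LD 16:8 library or the 175OJ8 library (0.0922 to 0.161).

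**Figure D2:**
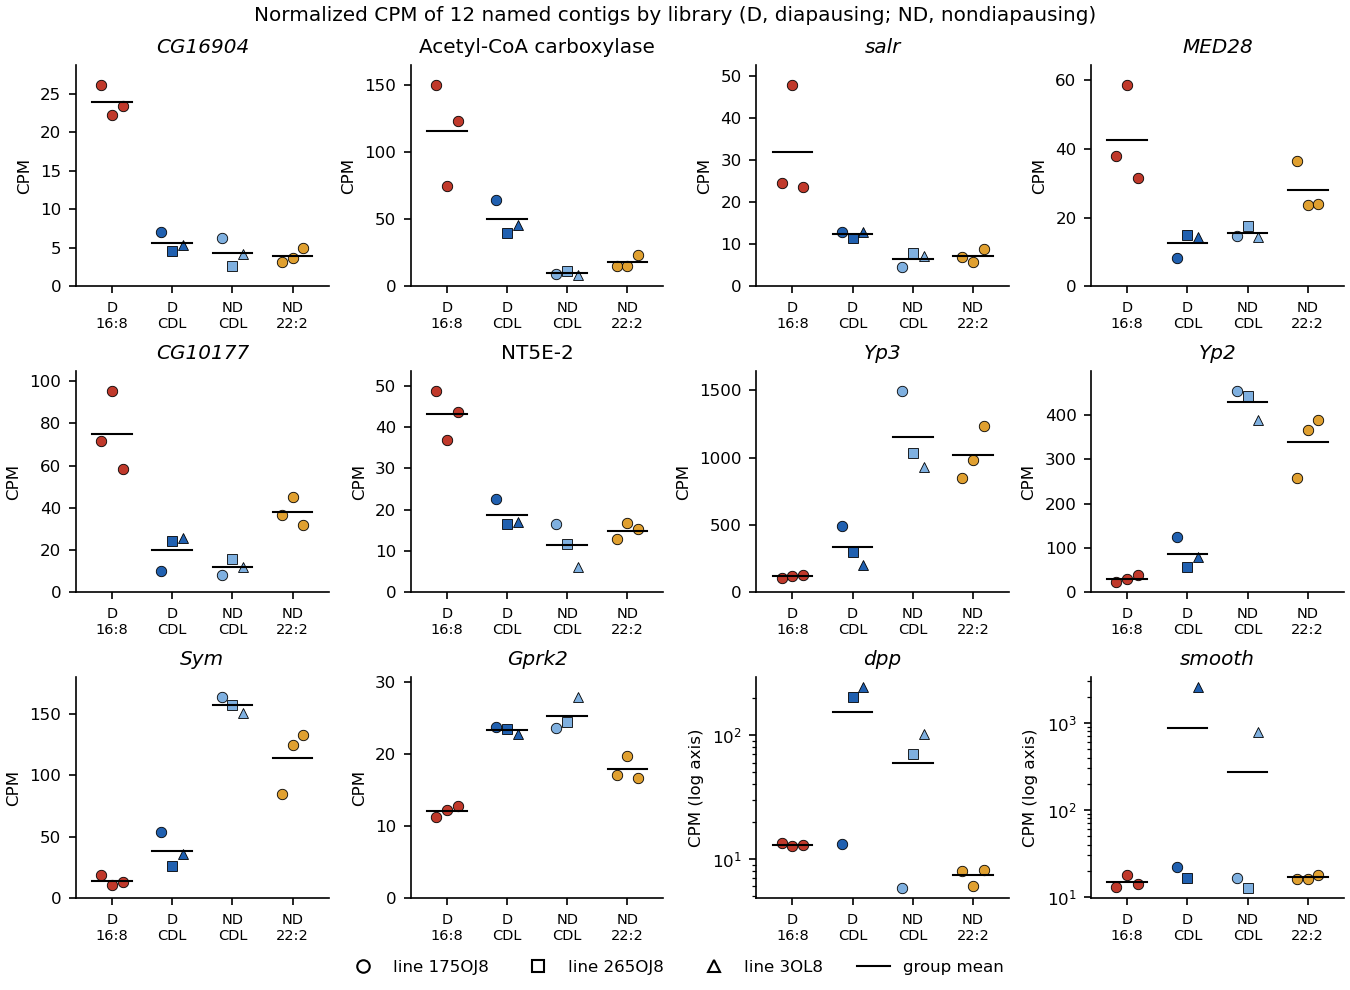
Each panel gives 1 contig and each point 1 library in CPM, with the shape for the isofemale line and the bar for the group mean of 3 libraries. The y axis starts at 0, except for *dpp* and *smooth*, which have a log axis. *CG16904* is high in the LD 16:8 libraries only, *Yp2*, *Yp3*, and *Sym* rise from LD 16:8 through the diapausing CDL libraries to the nondiapausing libraries, and *dpp* is high in lines 265OJ8 and 3OL8 and *smooth* in 3OL8, in both types of female.

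The largest drops among the 82 contigs came with high levels in 1 or 2 lines at the CDL. *smooth*, an RNA-binding protein of the nervous system, had 13.0, 17.8, and 14.3 CPM at LD 16:8, and at the CDL 22.0 CPM in 175OJ8, 16.6 in 265OJ8, and 2576 in 3OL8 (log2 fold change -5.85, SE 1.23, FDR 0.0295). The nondiapausing 3OL8 library at the CDL had 779 CPM of *smooth*, and the other 5 nondiapausing libraries 12.7 to 18.1. *CG12316* had 1052 CPM in the diapausing and 839 CPM in the nondiapausing 3OL8 library, against at most 21.1 in any other. *Abl*, a tyrosine kinase of growing axons, had 49.3 and 22.0 CPM in those 2 libraries and 2.65 to 11.3 in the others. In 8 of the 36 lower contigs, these and *MED16*, contig_101, contig_20472, contig_22253, and contig_333, the 2 highest of all 12 libraries were the 2 of line 3OL8. With the single-library rule run over the 6 diapausing libraries alone, 6 of the 36 lower contigs would have been set aside, leaving 30. All 8 lost their call when the diapausing 3OL8 library was left out (*smooth* FDR 0.980, *CG12316* FDR 0.989, *Abl* FDR 0.800), and these 3 also without any one LD 16:8 library (FDR 0.124 to 0.254). Loss without the 3OL8 library follows in part from picking the 8 by high 3OL8 values. *dpp*, a secreted signal of the BMP family, stood apart in another way, with 13.2 CPM in 175OJ8, 204 in 265OJ8, and 244 in 3OL8 at the CDL. The LD 16:8 libraries, all of 175OJ8, had 12.7 to 13.5 CPM of *dpp*, so that within line 175OJ8 the light cycles were level (log2 fold change over all lines -3.56, SE 0.73, FDR 0.00565). The call for *dpp* was lost without LD 16:8 replicate 1 (FDR 0.0711) or 2 (0.0983). The nondiapausing libraries of 265OJ8 and 3OL8 had 70.1 and 102 CPM of *dpp*, and the other 4 had 5.81 to 8.16.

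Isofemale line is thus partly confounded with light cycle, since no LD 16:8 library came from 265OJ8 or 3OL8. A GLM term for line makes the contrast lean on the 1 diapausing CDL library of 175OJ8. It also takes line differences as alike in both types of female. A contig extreme in that library can pass, as *zfh2*, a single-library contig highest in it, did (FDR 2.13e-06 with the term). *Yp3*, *Yp2*, and *Sym* lost their call without that library. With line as a term in the GLM, 26 of the 46 higher and 19 of the 36 lower contigs stayed DE in the same direction, against 0.765% of all contigs called in that fit, and all 82 kept their sign. The quasi-likelihood test with the term kept 14 and 9 (0.466% of contigs). Among those kept were *CG10177* (log2 fold change with the line term 2.71, SE 0.32, FDR 3.44e-11), *Yp3* (-1.95, SE 0.32, FDR 1.03e-06), *MED28* (2.11, SE 0.35, FDR 2.23e-05), *CG16904* (1.63, SE 0.31, FDR 0.000296), *Yp2* (-1.80, SE 0.39, FDR 0.000688), and *Sym* (-1.71, SE 0.37, FDR 0.000871). *Acetyl-CoA carboxylase* (FDR 0.193), NT5E-2 (FDR 0.220), *Rh50* (FDR 0.0644), *Mdr49* (FDR 0.141), *wash* (FDR 0.0544), and *wek* (FDR 0.0768) were not called with the term. None of the 8 contigs of line 3OL8 was kept, which follows in part from picking them by high 3OL8 libraries. With the term *dpp* came to -0.10 (SE 0.32, FDR 0.978).

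The 1 CDL library of line 175OJ8 has no replicate, so its place is given without a test. Like those of 265OJ8 and 3OL8, it is part of the comparison that chose the contigs. The counts below follow in part from that choice. The 175OJ8 library lay below all 3 LD 16:8 libraries in all 46 higher contigs, as it did in 42.2% of all contigs that were higher at LD 16:8. Among the 36 lower contigs it lay above them in 33, as it did in 46.1% of all contigs that were lower. The exceptions were *dpp*, *CG12316*, and contig_333. By the same count, 265OJ8 lay beyond the LD 16:8 libraries in 42 and 34 contigs (38.1% and 43.1% of all contigs in each direction), and 3OL8 in 46 and 36 (41.8% and 42.9%). contig_2370 was the reverse of the 3OL8 contigs, with 698 CPM in 175OJ8 at the CDL, 48.7 in 265OJ8, 149 in 3OL8, and 27.6 to 43.0 at LD 16:8. Its 698 CPM was 4.69 times the next library, just under the limit of the single-library rule.

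**Figure D3:**
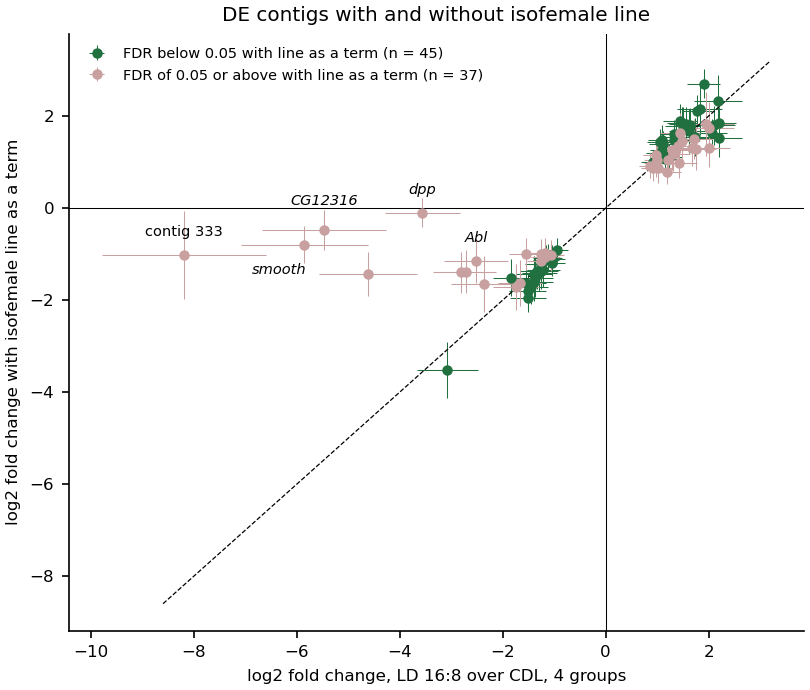
Each point is 1 of the 82 DE contigs, with its log2 fold change between LD 16:8 and the CDL in the GLM of 4 groups on the x axis and with isofemale line as a further term on the y axis, and bars of 1 SE. Green points are the 45 contigs with an FDR below 0.05 with the term. *dpp*, *smooth*, *CG12316*, *Abl*, and contig_333 lie far above the dashed line of equal values, with values between -1.15 and -0.10 with the term.

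The LD 16:8 libraries also differed among themselves. Replicate 3 was the lowest of the 3 in 30 of the 46 higher contigs, as in 40.0% of all contigs higher at LD 16:8, and replicate 2 the highest in 28, as in 39.5%. contig_7288 had 764, 543, and 234 CPM at LD 16:8 and contig_21150 353, 451, and 84.2, and in both replicate 3 was nearer to the CDL libraries, which had 136 to 169 and 52.7 to 97.6 CPM. Without replicate 3, 120 contigs were higher and 44 lower. Leaving out replicate 2 gave 22 and 9, and leaving out replicate 1 gave 37 and 12. Of the 82 contigs, 15 kept their call without any one of the 6 diapausing libraries, 13 of them higher and 2 lower. They hold *CG16904*, *MED28*, *CG10177*, and the 7 unnamed contigs described above, and 14 of the 15 also kept their call with the line term.

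Relative to the 6 nondiapausing libraries, most higher contigs had an LD 16:8 mean above their range and a diapausing CDL mean within it. The LD 16:8 mean lay above the range of the 6 nondiapausing libraries in 43 of the 46 higher contigs, as in 45.4% of all contigs higher at LD 16:8. The CDL mean lay within that range in 30 of the 46, above it in 6, and below it in 10, against 36.0%, 32.5%, and 31.5% of all contigs higher at LD 16:8. The commonest case, with LD 16:8 above and the CDL within, held 29 contigs, against 12.5% of all contigs higher at LD 16:8, *CG16904*, *CG10177*, and *YL-1* among them. In 8 contigs, including *MED28* and *Ctr1C*, LD 16:8 was above and the CDL below, against 0.373%. In 6 contigs (*Acetyl-CoA carboxylase*, *salr*, NT5E-2, *Rh50*, contig_28415, and contig_9887), against 32.5% of all contigs higher at LD 16:8, both diapausing means lay above every nondiapausing library, with the CDL mean at 1.42 to 3.56 times and the LD 16:8 mean at 3.27 to 8.28 times the nondiapausing mean. The CDL groups had the 2 lowest of the 4 group means in 35 of the 46 contigs, as in 14.1% of all contigs higher at LD 16:8. In these 35 the nondiapausing range joins a lower CDL and a higher LD 22:2 group. For *CG10177* it held 8.04 to 15.8 CPM at the CDL and 31.8 to 45.3 at LD 22:2. Whether such contigs were raised at LD 16:8 or lowered at the CDL was not tested.

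The 36 lower contigs fell into several kinds. In 9 of them (*Yp3*, *Yp2*, *Sym*, *wash*, contig_16620, contig_10191, contig_26989, contig_27077, and contig_17100) both diapausing means lay below every nondiapausing library, as in 32.0% of all contigs lower at LD 16:8. The nondiapausing mean was 1.26 to 41.6 times the CDL mean and 4.31 to 121 times the LD 16:8 mean in these 9. contig_16620 had the widest steps, from 10.8 to 13.1 CPM at LD 16:8 over 19.1 to 49.0 in diapausing females at the CDL to 954 to 1927 in nondiapausing females. *Yp2* went from 23.5 to 37.9 CPM over 56.9 to 124 to 258 to 453, and *Sym* from 10.6 to 18.5 over 26.1 to 53.9 to 84.7 to 164. Of the 9, 7 kept their call with the line term. Another 9 contigs, *Gprk2* and *wek* among them, were below the nondiapausing range at LD 16:8 and within it at the CDL (8.45% of all contigs lower at LD 16:8), and 5, with *CG2543* and *CG9238*, were below it at LD 16:8 and above it at the CDL (0.247%). In 8, with *RhoGAP100F* and *dpp*, LD 16:8 lay within the range and the CDL above it (9.79%). In the last 5, against 28.9% of all such contigs (*Mdr49*, contig_31579, contig_7044, contig_1760, and contig_31381) both diapausing means lay above it, at 1.34 to 2.15 times the nondiapausing mean at LD 16:8 and 2.75 to 6.31 times at the CDL.

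**Figure D4:**
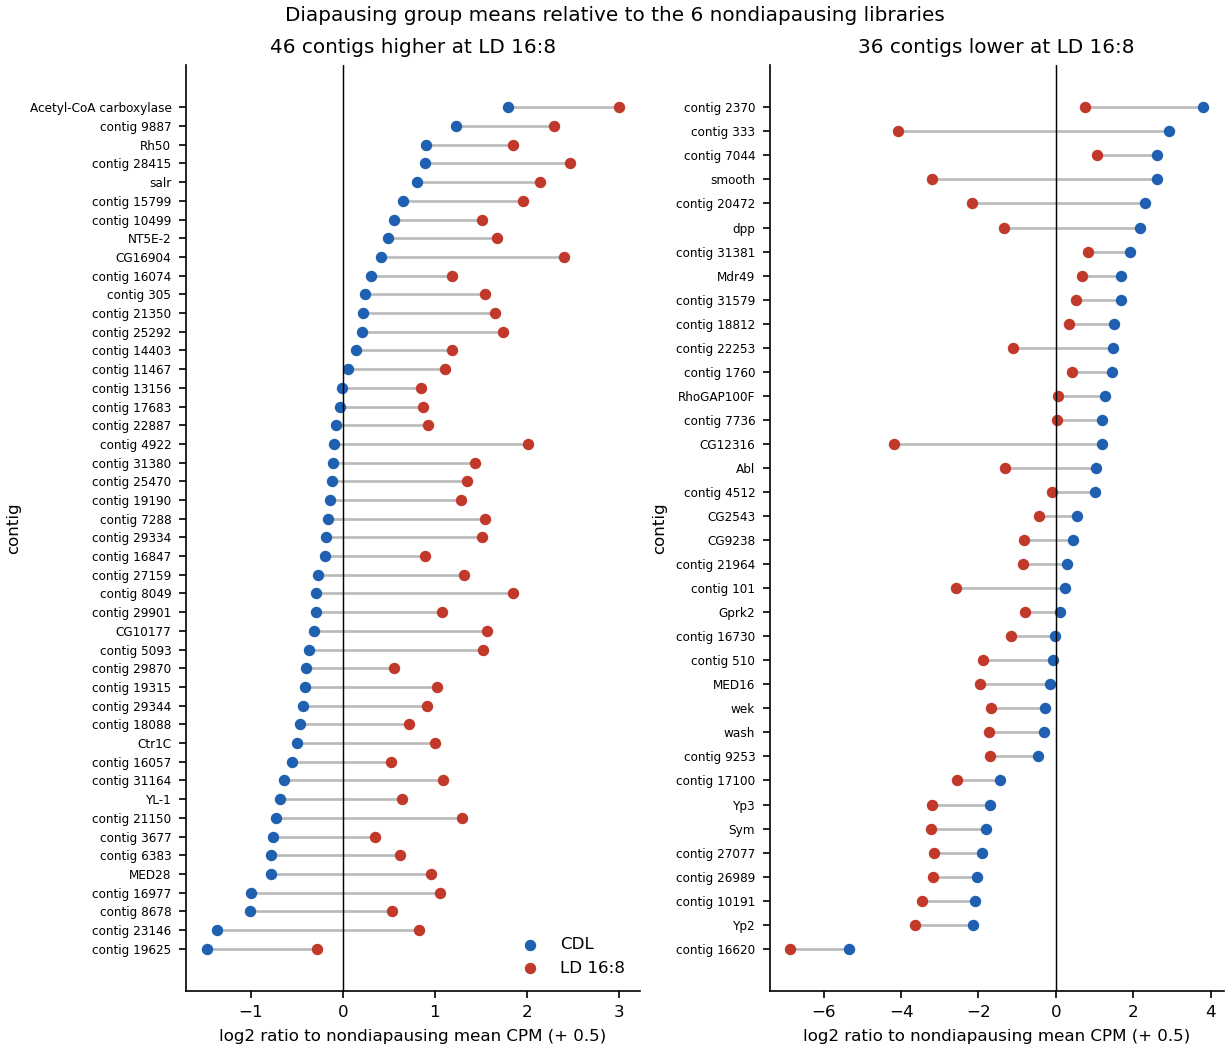
Each row is 1 DE contig, with the mean CPM of diapausing females at LD 16:8 (red) and at the CDL (blue) as a log2 ratio to the mean of the 6 nondiapausing libraries, after adding 0.5 CPM to each mean. The line at 0 is the nondiapausing level. Most higher contigs (left) have the CDL point near 0 and the LD 16:8 point above it, and the lower contigs (right) run from *Yp2* and contig_16620, with both points far below 0, to *Mdr49* and contig_2370, with both above.

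**Figure D5:**
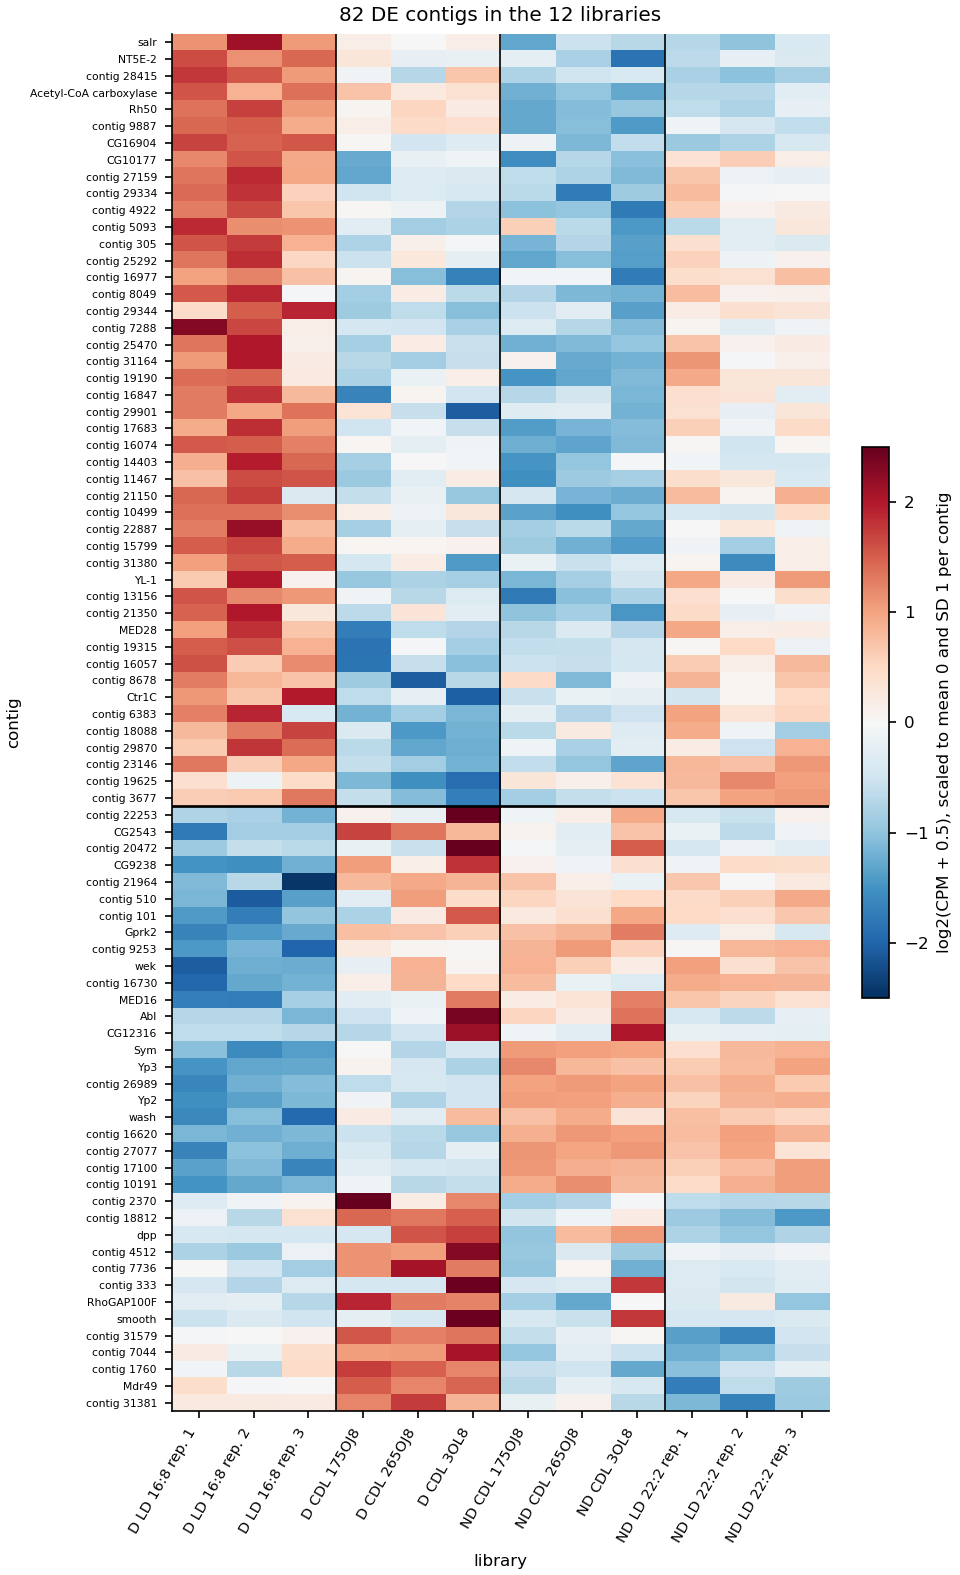
Rows are the 82 DE contigs, the 46 higher at LD 16:8 above the black line and the 36 lower below it, and columns are the 12 libraries. Color gives log2(CPM + 0.5) scaled to a mean of 0 and an SD of 1 in each contig. The LD 16:8 columns stand apart in both blocks, and single dark cells in the 3OL8 columns mark contigs such as contig_20472, *smooth*, and *CG12316*.

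The comparisons with nondiapausing females share libraries with the comparison of light cycles, so their values are set side by side. At the CDL, diapausing and nondiapausing females differed in 14 of the 46 higher and 18 of the 36 lower contigs, against 49.5% of all contigs (25.7% higher and 23.8% lower in diapausing females). The quasi-likelihood test called the same numbers, 14 and 18 (48.5% of all contigs), and the replicate block described below 16 and 21 (51.5%). LD 16:8 and LD 22:2 differed in 33 and 23, against 49.6% of all contigs, with 24.8% in each direction. The quasi-likelihood test gave 33 and 23 (48.6%) and the replicate block 34 and 25 (51.5%). Here the block pairs libraries by number, and those of the same number correlated only at -0.11 to 0.06. At the CDL *Acetyl-CoA carboxylase* was higher in diapausing females (log2 fold change 2.32, FDR 5.66e-11), and *Yp3* was lower (-1.79, FDR 4.80e-06). Between LD 16:8 and LD 22:2 the corresponding values were 2.67 (FDR 5.51e-15) and -3.13 (FDR 1.05e-14). *CG16904* showed its difference between the latter pair (2.60, FDR 1.48e-16) and not at the CDL (0.38, FDR 0.347).

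In nondiapausing females, the CDL against LD 22:2 comparison used none of the same libraries. It called 0.103% of contigs, 0.0225% higher and 0.0804% lower at the CDL. It shares the partial confounding with isofemale line. The LD 22:2 pools were of the same line as the LD 16:8 pools, and both CDL groups also held other lines. What part line has in a direction shared by both types of female was not tested. Of the 46 higher contigs 7 were called in this comparison, all of them lower at the CDL than at LD 22:2. A positive log2 fold change in it was found for 2 of the 46, against 39.6% of all contigs higher at LD 16:8. The quasi-likelihood test called 1 of the 46 (0.00321% of all contigs) and DESeq2 8. contig_23146 (-2.15, FDR 2.76e-06), contig_4922 (-2.16, FDR 0.00282), and *CG10177* (-1.66, FDR 0.00282) were the named ones with contig_29334 (-1.36, FDR 0.0398), so that these 4 were lower at the CDL than at the other light cycle in both types of female. None of the 36 lower contigs was called by edgeR's likelihood ratio test, the quasi-likelihood test, or DESeq2, and 10 had an unadjusted p below 0.05. The interaction, here the change from the longer to the shorter day in diapausing females minus that in nondiapausing females, was called in 41 of the 46 higher and 24 of the 36 lower contigs, against 0.932% of all contigs (0.633% positive and 0.299% negative). It contains the comparison by which the contigs were chosen. The quasi-likelihood test called 30 and 6 (0.219% of all contigs). With a replicate block of line at the CDL and number at the other light cycles, 18 and 5 were called (0.672%). No block spans the CDL and another light cycle, so the block terms cannot be told apart from the interaction. No conclusion is drawn from these block counts.

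Many contigs share a blast hit and may be pieces of 1 gene. For 36 of the 82 there were 96 such partner contigs, 55 of them with the same sign as the DE contig. No partner was called by the likelihood ratio or quasi-likelihood test, 1 was called by DESeq2, and 12 had an unadjusted likelihood ratio p below 0.05 (7.13% of all contigs did), of which 6 had the same sign. The partner of *Yp3* had a log2 fold change of -0.997 (SE 0.31, FDR 0.152) and that of *Yp2* -0.40 (SE 0.31, FDR 0.873). The 2 partners of *Acetyl-CoA carboxylase* had 0.72 and 0.44. The partner of *dpp* had 0.23 and that of *MED28* -0.40, against -3.56 and 1.77 in the DE contigs, and the 6 partners of *Sym* ran from -0.07 to 0.98. Partners of *Mdr49* ran from -0.15 to 0.01 (-1.06 in the DE contig) and those of *wek* from -0.46 to 0.12 (-1.66). The partner of *CG10177* had 0.19 (1.91), and those of *MED16* had -0.32 and 0.26 (-2.36). Those of *CG12316* had 0.98 and 0.95, opposite in sign to -5.47 in the DE contig. The files give no position of a contig in a gene, so what sets the contigs of a hit apart was not tested.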

How the data were processed

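The authors mapped trimmed and error-corrected SOLiD reads of polyA RNA to their own *D. montana* transcriptome with CLC Genomics Workbench and counted uniquely mapping reads per contig with HTSeq. The deposited values are these raw counts. Contigs have no genome position here, and the hit names matched no gene table used here, so gene names come from the study's lists. The 12 blank lines in the files were dropped, and all 31233 contigs were tested. In edgeR 4.0.16 (R 4.3.3) counts were normalized by TMM, and a GLM of the 4 groups was fitted to the 12 libraries. Contrasts were tested by likelihood ratio with Benjamini-Hochberg FDR of 0.05, as in the study's methods. Contigs with 1 library at 5 times or more every other were set aside after adjustment. Alternatives were the quasi-likelihood test, DESeq2 1.42.0, RLE, no TMM, a minimum count of 10, estimateDisp, line as a term, the 6 diapausing libraries alone, multiples of 3 and 10, and each library left out. Leaving out both 3OL8 libraries and running the single-library rule over 6 libraries were added after seeing the data.

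Named contigs are the DE contigs of the study's lists and the 10 with the lowest FDR and separate groups. Contigs that share a hit are given by their counts. The comparison, its members, and the lists were chosen with earlier results of these data known. After removing group means, CDL libraries of the same line correlated at 0.201, 0.137, and 0.302 over 30474 contigs, and lines were taken to pair diapausing with nondiapausing CDL libraries. Libraries of the same number at LD 16:8 and LD 22:2 correlated at -0.02, -0.11, and 0.06, and were not taken as pairs. The replicate block still joins them by number, which is an arbitrary pairing. Fits were tested on simulated data.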

Additional observations from a re-analysis of the deposited data

Results flagged for a closer look

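In 24 of the named contigs the interaction between light cycle and type of female had an FDR below 0.05 in the likelihood ratio test over all 12 libraries. The value is the log2 fold change of the shorter over the longer day in diapausing females (LD 16:8 over the CDL) minus that in nondiapausing females (the CDL over LD 22:2). It contains the comparison by which these contigs were chosen, and a positive value means that the CDL groups were low relative to LD 16:8 and LD 22:2 together. Isofemale line is partly confounded with this value, since only the CDL groups held pools of several lines. Of the 24, 12 were also called by the quasi-likelihood test and 8 with the replicate block, in which line pairs the CDL libraries, and 7 by both. These 7 are contig_23146, contig_4922, *CG10177*, contig_29334, *MED28*, contig_27159, and contig_19315. *Yp2* was called with the block alone (FDR 0.00364; quasi-likelihood FDR 0.0597), and *Acetyl-CoA carboxylase*, contig_19625, *YL-1*, *Gprk2*, and *dpp* by the quasi-likelihood test alone. The other 11, *CG16904* among them (quasi-likelihood FDR 0.0777, block FDR 0.710), were called by neither. No block holds both a CDL library and a library of another light cycle, whereas the interaction sets these against each other. The block terms therefore cannot be told apart from the interaction. No conclusion is drawn from calls kept or lost with the block.

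Among contigs higher at LD 16:8 the interaction was 4.36 for contig_23146, 4.27 for contig_4922, 3.57 for contig_29596 (*CG10177*), 3.09 for contig_29334, 2.62 for contig_26556 (*MED28*), and 2.42 for contig_27159. It was 2.40 for contig_8119 (*YL-1*), 2.06 for contig_6502 (*Acetyl-CoA carboxylase*), 1.97 for contig_19315, 1.93 for contig_30325 (*Ctr1C*), 1.91 for contig_19193 (*CG16904*), 1.76 for contig_19625, 1.58 for contig_10780 (*Rh50*), and 1.53 for contig_7281 (NT5E-2).

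For contigs lower at LD 16:8 it was -1.92 for contig_20642 (*Sym*), -1.86 for contig_8009 (*Yp2*), -1.81 for contig_19416 (*wash*), -1.61 for contig_14279 (*Mdr49*), -1.44 for contig_12109 (*Gprk2*), and -1.22 for contig_11256 (*CG2543*). The values of contig_13779 (*smooth*, -9.85), contig_491 (*CG12316*, -9.50), contig_19630 (*dpp*, -6.56), and contig_9106 (*Abl*, -3.94) go with high levels in the CDL libraries of 1 or 2 lines in both types of female.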

How the results depend on the processing

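The 82 DE contigs, 46 higher and 36 lower, became 2, 2, and 0 with the quasi-likelihood test. With line as a term there were 238, 167, and 71, and with its quasi-likelihood test 145 and 106 in all and higher. Without the single-library rule there were 126 in all and 59 lower. Leaving out 1 of the 12 libraries gave 31 to 164 in all, 22 to 120 higher, and 9 to 82 lower, the highest without LD 16:8 replicate 3 (in all and higher) or the 265OJ8 library at the CDL (lower) and the lowest without LD 16:8 replicate 2. Totals also moved by over 1.5 times without LD 16:8 replicate 1 (49, with 12 lower) and the diapausing 175OJ8 (134, with 75 lower) or 265OJ8 library (141). Without the nondiapausing 3OL8 library at the CDL 60 were lower. The other fits gave 62 to 110 in all.

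Of the 45 contigs kept with the line term, 23 were kept by the quasi-likelihood test. That test gave 36 contigs with an interaction instead of 65 and 1 instead of 7 called in nondiapausing females. The replicate block changed no count of the comparisons of diapausing with nondiapausing females by over 1.5 times. No named contig turned its direction. Of the 31 named, 29 lost their call in the quasi-likelihood test, 11 with the line term, 12 with the 6 diapausing libraries alone, and 3 to 16 without 1 diapausing library. RLE, no TMM factors, estimateDisp, and a minimum count kept all 31. Contigs under about 5 CPM, such as *MED16*, *wash*, and *wek*, rest on few reads.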
